A study of Mus musculus with 8 samples.

Results

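The 10 transcription factors followed here help to keep mouse embryonic stem cells (ESCs) in the pluripotent state, and were measured after knockdown (KD) of the histone acetyltransferase Tip60, of the deacetylase Hdac6, or of both. They are the core factors Pou5f1 (Oct4), Sox2 and Nanog and the naive-state factors Esrrb, Klf2, Klf4, Klf5, Tbx3, Zfp42 (Rex1) and Nr0b1 (Dax1). Every non-control probe whose gene name in the scanner files was one of these 10 names was taken, which gave 11 probes among 39429 probes and 30175 gene names on the array. Of the 11 probes, 10 passed the filter on dim probes, 1 for each gene, among 22546 probes kept in all.

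The cells were E14 mouse ESCs grown without feeders on gelatin in serum medium with LIF, infected with concentrated lentivirus and harvested 72 h after infection. The 8 samples formed 4 groups of 2, each profiled on 1-colour Agilent whole-genome arrays, and the samples of a group are called arrays A and B here. The control KD samples received a hairpin against EGFP. In the Tip60 KD and Hdac6 KD samples 1 gene each was targeted, and in the double KD samples both were, so that infected cells made up every group. The groups were infected populations rather than clones. The methods of the study call the samples of a group biological replicates without saying at which step A and B were separated, and p-values measure the spread between these samples.

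Pou5f1, Sox2 and Nanog bind many of the same enhancers, often through a composite octamer and Sox site, and activate each other as well as genes of the pluripotent state. Esrrb, the Klf factors, Tbx3 and Nr0b1 join this network in the naive state, where the LIF receptor acts through Jak kinases and Stat3 and feeds into Klf4 and other naive factors. Zfp42 is widely used as a marker of naive cells. Tip60, encoded by Kat5, is the acetyltransferase of the Tip60-p400 chromatin remodeling complex, with which Hdac6 associates in ESCs, and the study asked whether Hdac6 was needed for gene regulation by this complex.

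Values are log2 of the processed signal divided by the 75th percentile of its array, so that 0 is the 75th percentile, and levels were never compared between probes. Kat5 was 1.26 and 1.30 on the control KD arrays and -0.09 and -0.09 on the Tip60 KD arrays, a fall of 1.36 on the log2 scale (SE 0.11, limma adjusted p = 0.000989). In the double KD Kat5 fell by 1.31 (limma adjusted p = 0.00178). Hdac6 mRNA fell by 2.50 in the Hdac6 KD and by 1.88 in the double KD (limma adjusted p = 0.000335 and 0.000723), and it also fell by 0.45 in the Tip60 KD (limma adjusted p = 0.00522). All A arrays were on one slide and all B arrays on the other, and each group had the same position on both slides, so that group and slide position cannot be told apart. Each of the 10 kept member probes was well above background on all 8 arrays, so that the defining factors of ESCs were present in every sample.

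Promoter sequence is shown for the 4 members whose probes rose in the Tip60 KD, Pou5f1, Zfp42, Klf2 and Nr0b1, and for Nanog, which carries the composite site of Pou5f1 and Sox2. Each run holds the 250 bases before the annotated start (RefSeq, build GRCm38.p6), read 5′ to 3′ on the strand of the gene. Capitals mark matches, on either strand, to the octamer ATTTGCAT, the octamer-Sox composite (TTTGCAT, any 1 base, ACAA), the E-box CACGTG, the Esrrb element TCAAGGTCA, the GC box GGGCGG, the CCAAT box CCAAT and the TATA box TATAAA. The octamer and the composite share the letters TTTGCAT and may overlap. For Nanog and Pou5f1, which have more than 1 listed start, the first is shown.
Nanog promoter, chr6:122707239-122707488, plus strand: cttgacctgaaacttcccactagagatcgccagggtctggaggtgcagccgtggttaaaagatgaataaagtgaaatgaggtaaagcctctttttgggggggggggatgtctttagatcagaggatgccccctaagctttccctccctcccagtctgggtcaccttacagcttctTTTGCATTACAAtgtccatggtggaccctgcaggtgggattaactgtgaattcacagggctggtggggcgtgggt
Zfp42 promoter, chr8:43307010-43307259, minus strand: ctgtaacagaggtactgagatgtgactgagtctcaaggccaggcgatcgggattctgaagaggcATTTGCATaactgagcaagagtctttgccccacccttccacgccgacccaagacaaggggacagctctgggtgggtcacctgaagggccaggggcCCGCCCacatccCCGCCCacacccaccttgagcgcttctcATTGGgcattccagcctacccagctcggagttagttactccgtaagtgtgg
Pou5f1 promoter, chr17:35505782-35506031, plus strand: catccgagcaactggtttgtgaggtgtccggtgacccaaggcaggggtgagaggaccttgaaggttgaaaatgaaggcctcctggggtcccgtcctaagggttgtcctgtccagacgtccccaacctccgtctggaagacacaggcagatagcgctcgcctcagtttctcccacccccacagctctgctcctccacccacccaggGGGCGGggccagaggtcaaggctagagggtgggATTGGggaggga
Klf2 promoter, chr8:72318812-72319061, plus strand: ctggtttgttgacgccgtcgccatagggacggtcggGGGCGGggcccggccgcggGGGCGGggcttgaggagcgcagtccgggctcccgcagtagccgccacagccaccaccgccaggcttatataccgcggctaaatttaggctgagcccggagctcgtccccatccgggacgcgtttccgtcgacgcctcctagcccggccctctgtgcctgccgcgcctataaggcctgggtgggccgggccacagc
Nr0b1 promoter, chrX:86191525-86191774, plus strand: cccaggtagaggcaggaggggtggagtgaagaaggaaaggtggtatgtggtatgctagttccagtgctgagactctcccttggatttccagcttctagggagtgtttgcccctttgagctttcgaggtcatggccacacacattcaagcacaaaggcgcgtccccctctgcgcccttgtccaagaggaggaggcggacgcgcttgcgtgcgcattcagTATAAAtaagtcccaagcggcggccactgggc

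The composite of TTTGCAT and ACAA stood 75 bases before the first Nanog start, and 0.0335% of the 32851 promoter windows of this length held it. It was in none of the windows of the other members. The octamer ATTTGCAT was found in Zfp42, 186 bases before its start, against 1.6% of all windows. The GC box, an element bound by Sp and Klf proteins, was in the windows of Pou5f1, Zfp42, Klf2, Sox2 and Klf4, and 32.7% of all windows held it. Pou5f1, Zfp42, Sox2 and Esrrb had a CCAAT box, which 33.8% of windows held, Klf4 had an E-box, which 6.02% held, and Nr0b1 had a TATA box 32 bases before its start, which 12.4% held. The Esrrb element, in 0.387% of windows, was in no member window. The windows covered 8 members, and none was listed for Klf5 or Tbx3. These matches describe sequence only.

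The Tip60 KD raised 4 of the 10 members and lowered none, at an adjusted p under 0.1 by limma over all 22546 probes, where 20.2% of all probes were called higher and 40.7% called in either direction. The 4 were Pou5f1 (log2 change 0.99, SE 0.12), Zfp42 (0.44, SE 0.10), Nr0b1 (0.42, SE 0.12) and Klf2 (0.40, SE 0.09). The Hdac6 KD raised 3 members, Nr0b1 (0.80, SE 0.12), Pou5f1 (0.46, SE 0.12) and Klf2 (0.43, SE 0.09), against 14.5% of all probes higher and 30.1% called. The double KD raised 4, Nr0b1 (0.69, SE 0.12), Klf2 (0.66, SE 0.09), Pou5f1 (0.62, SE 0.12) and Zfp42 (0.36, SE 0.10), and lowered Sox2 (-0.36, SE 0.11), against 16.6% of all probes higher, 17.3% lower and 33.9% called. Pou5f1, Nr0b1 and Klf2 were thus called in each knockdown, Zfp42 in the Tip60 KD and the double KD, and Sox2 in the double KD alone. Nanog, Esrrb, Klf4, Klf5 and Tbx3 were called in none. The knockdowns were set against the same control arrays, so that these calls are not independent. The share of all probes with each pattern of calls is not given here. The median change over the 10 members was 0.16, -0.02 and 0.25 in the Tip60, Hdac6 and double KD, beside 0.06, 0.03 and 0.05 over all probes kept.

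**Figure D1:**
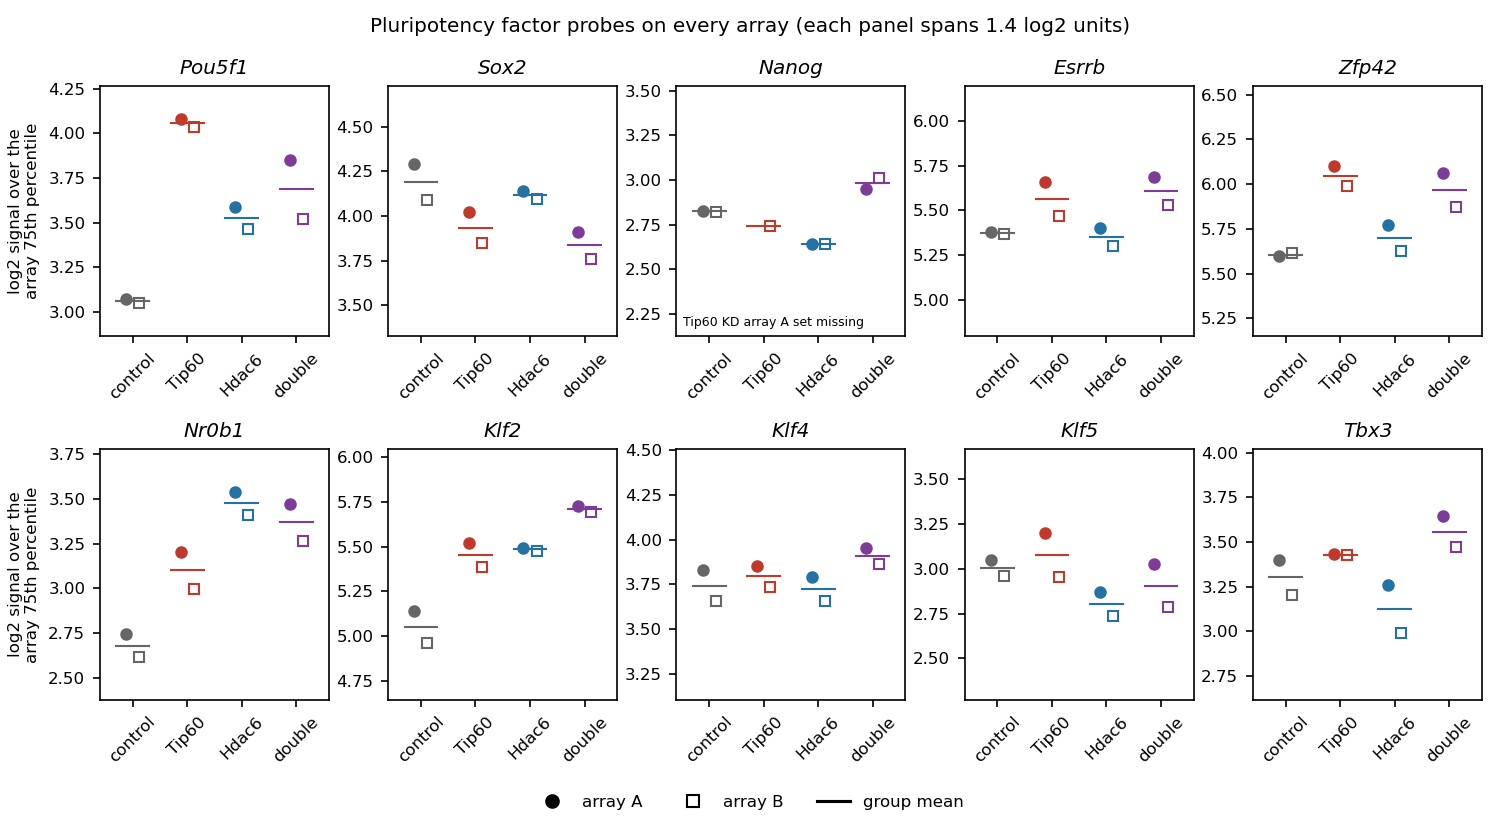
Each panel shows the probe of 1 gene on the 8 arrays, as log2 signal over the 75th percentile of the array, by group (control, Tip60, Hdac6 and double KD). Filled circles are A arrays, open squares are B arrays and lines are group means (n = 2, and 1 for Nanog in the Tip60 KD, where array A was set missing). Pou5f1, Nr0b1, Klf2 and, by little in the Hdac6 KD, Zfp42 have all their knockdown values above both control values. Klf4 values overlap between the control, Tip60 and Hdac6 KD. The share of all probes with either pattern is not given here.

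Among the core factors, Pou5f1 moved most. Its probe (mm9 chr17:35647280-35647340) read 3.07 and 3.05 on the control KD arrays, 4.08 and 4.04 in the Tip60 KD, 3.59 and 3.47 in the Hdac6 KD, and 3.85 and 3.52 in the double KD. All 6 knockdown values lay above both control values, and the Tip60 KD values lay above all others. The Tip60 KD change of 0.99 was a 1.99-fold higher signal (95% interval 0.69 to 1.29 on the log2 scale, limma adjusted p = 0.00265), larger than that of 97.2% of all probes, and it was 1.00 within slide 1 and 0.98 within slide 2. The Hdac6 KD change of 0.46 (limma adjusted p = 0.0452) and the double KD change of 0.62 (limma adjusted p = 0.0165) were smaller. The Hdac6 KD call was lost when either control array or either Hdac6 KD array was left out, or when dim probes were not filtered, with values of 0.40 to 0.52 over all alternatives. Pou5f1 has processed pseudogenes, and whether this probe reads their transcripts was not tested.

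Sox2, the partner of Pou5f1 at composite sites, was the member that fell, in the double KD. Its probe (mm9 chr3:34550773-34550832) read 4.29 and 4.09 in the control KD, 4.02 and 3.85 in the Tip60 KD, 4.14 and 4.09 in the Hdac6 KD, and 3.91 and 3.76 in the double KD. Both double KD values and both Tip60 KD values were below both control values, while the Hdac6 KD values overlapped them. The double KD change was -0.36 (95% interval -0.63 to -0.08, limma adjusted p = 0.0669), and 12 of 20 alternatives lost the call, with values from -0.46 to -0.20. Among them were both other background corrections, both other normalizations and the fits without control array A, either Hdac6 KD array or either double KD array. In the Tip60 KD the change was -0.26 (limma adjusted p = 0.139), and with the replicate letter as a block it passed the test (limma adjusted p = 0.0172). The Hdac6 KD difference of -0.08 had an interval of -0.35 to 0.20.

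Nanog group means spanned 0.34, beside 0.36 for Sox2, and 1 Nanog value is missing. The raw signal of its single spot (mm9 chr6:122663676-122663735) was 1091 on Tip60 KD array A, against 8137 to 11161 on the other 7 arrays, and the scanner software marked that spot as non-uniform. It was left out of the fit, so that Nanog in the Tip60 KD rests on array B alone. The remaining values were 2.83 and 2.82 in the control KD, 2.74 in the Tip60 KD, 2.64 and 2.64 in the Hdac6 KD, and 2.95 and 3.01 in the double KD. The groups did not overlap, with the double KD highest and the Hdac6 KD lowest. The Hdac6 KD change was -0.18 (interval -0.38 to 0.01, limma adjusted p = 0.161, and 0.0689 with the replicate block) and the double KD change 0.16 (interval -0.04 to 0.35, limma adjusted p = 0.209, and 0.0981 with the block). With no filter on dim probes both were called at the same values (limma adjusted p = 0.0369 and 0.0444), and the Hdac6 KD change also with only the arrays compared (limma adjusted p = 0.0961). With the marked spot kept, the Tip60 KD change was -1.81 in place of -0.08, and neither value was called. Nanog too has processed pseudogenes that this probe was not checked against.

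Zfp42, the naive marker, rose with Tip60 depletion. Its probe (mm9 chr8:44380667-44380726, on the minus strand) read 5.60 and 5.61 in the control KD, 6.10 and 5.99 in the Tip60 KD, 5.77 and 5.63 in the Hdac6 KD, and 6.06 and 5.87 in the double KD. All 6 knockdown values were above both control values, the lower Hdac6 KD value by little. The Tip60 KD change of 0.44 (1.36-fold, limma adjusted p = 0.0204) stayed called under all 20 alternatives. The double KD change of 0.36 (limma adjusted p = 0.0482) was lost under 6 alternatives, among them both other background corrections and the fits without control A, control B or double KD A, and ranged from 0.27 to 0.62. The Hdac6 KD difference was 0.09 (interval -0.15 to 0.34), but with quantile normalization it was 0.32 and called (limma adjusted p = 0.0805).

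Nr0b1, an orphan receptor that binds Pou5f1 and other factors of the network, was the member that rose most in the Hdac6 KD. Its probe (mm9 chrX:83441169-83441228) is printed as 10 spots on each array, whose SD within an array was 0.05 to 0.15. Averaged over spots it read 2.75 and 2.61 in the control KD, 3.20 and 3.00 in the Tip60 KD, 3.54 and 3.41 in the Hdac6 KD, and 3.47 and 3.27 in the double KD, with 9 spots on control array B after 1 marked spot was left out. All 6 knockdown values were above both control values, and both Hdac6 KD values were above both Tip60 KD values. The Hdac6 KD change of 0.80 was 1.74-fold (95% interval 0.50 to 1.09, limma adjusted p = 0.00906) and was 0.80 within each slide. The Tip60 KD change of 0.42 (limma adjusted p = 0.0421) was lost without control array B, without Tip60 KD array A, or with no filter on dim probes, and ranged from 0.32 to 0.53. The double KD change of 0.69 was called under all 20 alternatives (main limma adjusted p = 0.0115).

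Of the Klf factors only Klf2 was called against the control KD, and the Klf factors were not tested against each other. Klf2 (mm9 chr8:74845137-74845196), a zinc finger factor that shares targets with Klf4 and Klf5, read 5.14 and 4.96 in the control KD, 5.52 and 5.38 in the Tip60 KD, 5.49 and 5.48 in the Hdac6 KD, and 5.73 and 5.70 in the double KD. All 6 knockdown values were above both control values, and both double KD values were above all others. Its changes were 0.40, 0.43 and 0.66 in the Tip60, Hdac6 and double KD (limma adjusted p = 0.0219, 0.0252 and 0.0063), and the Tip60 KD and double KD calls stayed under all 20 alternatives. The Hdac6 KD call was lost without control array B or without either Hdac6 KD array, with values of 0.34 to 0.60.

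Klf4, the factor placed downstream of Stat3, and Klf5, its relative that acts with Klf2 and Klf4, were not called against control KD. Klf4 (mm9 chr4:55540167-55540226, on the minus strand) read 3.83 and 3.65 in the control KD, 3.85 and 3.73 in the Tip60 KD, 3.79 and 3.66 in the Hdac6 KD, and 3.96 and 3.86 in the double KD. Only the double KD values were both above the control values, by 0.17 on average (interval -0.08 to 0.42, limma adjusted p = 0.308, and 0.0504 with the replicate block). That change was 0.30 and 0.40, and called, with quantile normalization and with the deposited log2 table (limma adjusted p = 0.0434 and 0.0203). Klf5 read 3.05 and 2.96 in the control KD, 3.20 and 2.96 in the Tip60 KD, 2.87 and 2.74 in the Hdac6 KD, and 3.03 and 2.78 in the double KD. Its Hdac6 KD values were both below the control values (change -0.20, interval -0.52 to 0.12, limma adjusted p = 0.346, and 0.0547 with the block). The Klf5 probe is mapped to mm9 chr14:99702656-99712388, a span of 9733 bases, so that its sequence lies on both sides of a gap in the genome.

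Esrrb, an orphan receptor of the naive network, and Tbx3, a T-box factor, showed small differences. The kept Esrrb probe (mm9 chr12:87862509-87862568) read 5.38 and 5.37 in the control KD, 5.66 and 5.47 in the Tip60 KD, 5.40 and 5.30 in the Hdac6 KD, and 5.69 and 5.53 in the double KD. The Tip60 KD and double KD values were all above the control values, by 0.19 (interval -0.06 to 0.44) and 0.24 (interval -0.02 to 0.49), with limma adjusted p = 0.224 and 0.156. They passed the test with the replicate block (limma adjusted p = 0.0561 and 0.0317) and with quantile normalization, at 0.35 and 0.45 (limma adjusted p = 0.0464 and 0.03), and the double KD change also with the deposited log2 table, at 0.39 (limma adjusted p = 0.0797). The other Esrrb probe (mm9 chr12:87856069-87856128) was well above background on 7 arrays but above the floor on 0, and was not tested.

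Tbx3 (mm9 chr5:120134511-120134570) read 3.40 and 3.21 in the control KD, 3.43 and 3.43 in the Tip60 KD, 3.26 and 2.99 in the Hdac6 KD, and 3.65 and 3.47 in the double KD. Its double KD values were both above the control values, by 0.25 (interval -0.06 to 0.57, limma adjusted p = 0.212, and 0.0397 with the block), while its Hdac6 KD values overlapped them. The double KD change was 0.42, 0.36 and 0.47, and called, with 1 background for every array, quantile normalization and the deposited log2 table (limma adjusted p = 0.069, 0.0581 and 0.0187). With that table the Tip60 KD change was 0.29 and called as well (limma adjusted p = 0.0485).

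**Figure D2:**
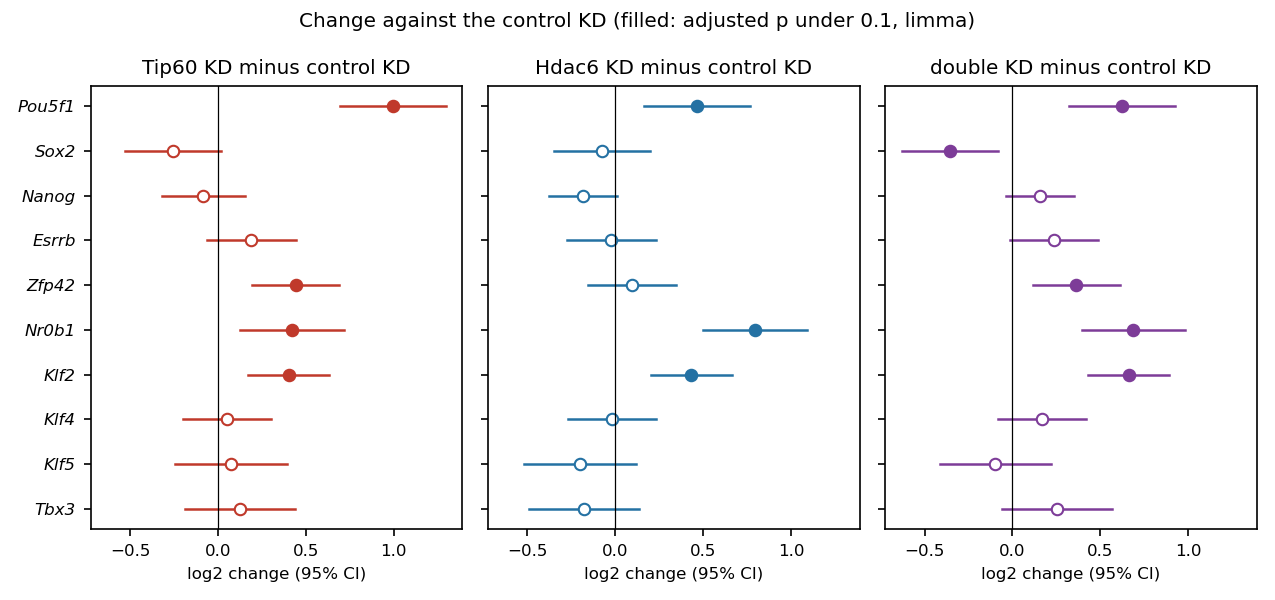
Points are log2 changes of each gene against the control KD in the Tip60 KD, Hdac6 KD and double KD, with 95% intervals from limma. Filled points had an adjusted p under 0.1. Pou5f1, Nr0b1 and Klf2 are filled to the right of 0 in all panels, and Sox2 is filled to the left of 0 in the double KD.

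The replicate letters paired the arrays, since each slide held 1 letter, and the fit with the letter as a block called more probes of all kinds. In that fit 6 members were called in the Tip60 KD, 5 in the Hdac6 KD and 9 in the double KD, against 60.8%, 53.1% and 55.7% of all probes. The members added were Sox2 (lower) and Esrrb (higher) in the Tip60 KD, and Klf5 and Nanog (both lower) in the Hdac6 KD. Klf5 was the 1 member not called in the double KD.

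Between the Tip60 KD and the Hdac6 KD 3 of the 10 members were called, a share near that of all probes (23.9%). Pou5f1 was higher in the Tip60 KD by 0.53 (SE 0.12, limma adjusted p = 0.0363) and Zfp42 by 0.35 (SE 0.10, limma adjusted p = 0.0713), while Nr0b1 was lower (change -0.37, SE 0.12, limma adjusted p = 0.0914). The 2 arrays of each group did not overlap for any of these, but they overlapped for only 2 of the 10 members. The share of all probes without overlap is not given here, so no weight rests on this. The Pou5f1 call was lost in the 4 fits that left out an array of either group, and the Zfp42 and Nr0b1 calls were lost under 11 and 15 of 20 alternatives, with no change of sign. For Zfp42 these included the fits without any control, Tip60 KD or Hdac6 KD array, and for Nr0b1 the fits without any of the 8 arrays. For Klf2 the difference was -0.03, with an interval of -0.26 to 0.20. With the replicate block 7 members were called, against 42.1% of all probes, the additions being Klf5, Esrrb and Tbx3 (higher in the Tip60 KD) and Sox2 (lower).

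Adding Hdac6 depletion to Tip60 depletion changed no member past the threshold of limma, where 4.65% of all probes were called. An unadjusted p under 0.05 was found for 3 members (Pou5f1, Klf2 and Nanog). The share of all probes at that unadjusted threshold is not given here, so no weight rests on this count. Pou5f1 was lower in the double KD than in the Tip60 KD (change -0.37, interval -0.67 to -0.07, limma adjusted p = 0.191). Klf2 was higher by 0.26 (interval 0.03 to 0.49) and Nr0b1 by 0.27 (interval -0.03 to 0.56). With the replicate block Pou5f1, Klf2 and Nr0b1 were called (limma adjusted p = 0.0426, 0.0499 and 0.0301), against 27.6% of all probes.

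The double KD differed from the Hdac6 KD in Kat5 mRNA (-1.47) and also in Hdac6 mRNA, which was 0.62 higher in the double KD (limma adjusted p = 0.0133). The part of the weaker Hdac6 depletion in the differences that follow was not tested. Nanog, higher in the double KD, was the 1 member called, against 10.1% of all probes. Its change was 0.34 (SE 0.07, limma adjusted p = 0.0783), from 2.64 and 2.64 in the Hdac6 KD to 2.95 and 3.01 in the double KD, and 13 of 20 alternatives lost the call, including the fits without any control, Hdac6 KD or double KD array. With the replicate block 7 members were called, against 29.3% of all probes. They were Klf2, Zfp42, Esrrb, Tbx3, Nanog and Klf4 (higher) and Sox2 (lower), and the largest of these was Tbx3, at 0.43 (interval 0.12 to 0.75, limma adjusted p = 0.0159 with the block and 0.123 without).

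**Figure D3:**
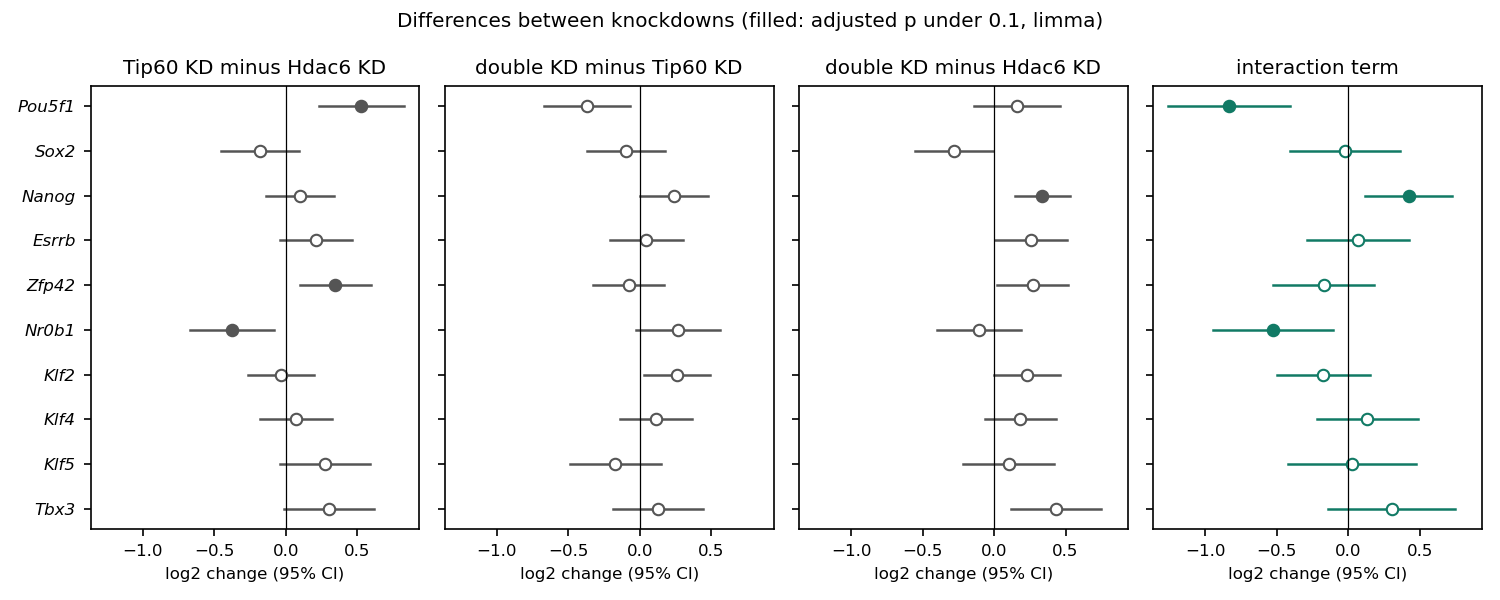
Points are log2 differences between knockdowns and, at the right, the interaction term, with 95% intervals from limma and filled points for an adjusted p under 0.1. Pou5f1 lies to the right of 0 between the Tip60 KD and the Hdac6 KD and to the left of 0 in the interaction, and Nanog lies to the right of 0 in the interaction.

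The interaction term asked whether the double KD change equalled the sum of both single changes on the log2 scale. It was called for 3 of the 10 members, against 23.4% of all probes. Hdac6 mRNA itself was 0.62 higher in the double KD than in the Hdac6 KD (limma adjusted p = 0.0133), so that depletion of Hdac6 was weaker there. This call was lost without Hdac6 KD array B and with only the arrays compared, with values from 0.58 to 0.64, and its part in the terms below was not tested. Hdac6 mRNA was also lower in the Tip60 KD than in the control KD (change -0.45, limma adjusted p = 0.00522). The part of that fall in these terms was not tested either. For Pou5f1 the double KD change of 0.62 fell short of the sum of 0.99 and 0.46, with a term of -0.84 (SE 0.17, limma adjusted p = 0.0299), and this call held under all 19 alternatives, with a smallest size of -0.67. For Nr0b1 the term was -0.53 (SE 0.17, limma adjusted p = 0.0947), and 14 of 19 alternatives lost the call, leaving out any of the 8 arrays among them. For Nanog it was 0.42 (SE 0.12, limma adjusted p = 0.0801), resting on 1 Tip60 KD array, and 11 of 18 alternatives lost the call, leaving out any control, Hdac6 KD or double KD array among them. Klf2 had a term of -0.17 with an interval of -0.50 to 0.15. With the replicate block Tbx3 was also called, with a positive term of 0.31 (limma adjusted p = 0.0756), and 47.6% of all probes were.

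The profiles over the 8 arrays were next set against those of 14052 genes above the floor on all arrays, with each gene centred on its own mean. For Pou5f1 the nearest were Actl6a, which encodes a subunit of Tip60-p400 and other remodeling complexes, and Noc4l (root mean square difference 0.0447 and 0.0555, median over all genes 0.423). For Nr0b1 they were Arid5b and the mitochondrial gene ND4L (0.0456 and 0.05, median 0.388), and for Klf2 they were Nek4, a kinase, at 0.0488 and an array feature named NAP115494-1 at 0.0446 (median 0.326). Among the other members the nearest to Pou5f1 was Zfp42 (0.204), at rank 772, and the nearest to each other by this measure were Esrrb and Klf4 (0.0764). Klf4 was at rank 124 from Esrrb (median 0.257) and Esrrb at rank 195 from Klf4 (median 0.242). Their group means spanned the smallest ranges of all members, 0.26 and 0.18, and the measure is not scaled for range.

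Other genes of the pluripotency network were called higher more often than lower, by the brightest probe of each gene. Of 23 such genes, all tested, 14 were called higher and 4 lower in the Tip60 KD, 9 and 1 in the Hdac6 KD, and 11 and 1 in the double KD. Called genes were 78.3%, 43.5% and 52.2% of the list, beside 40.7%, 30.1% and 33.9% of all probes, and those called higher were 60.9%, 39.1% and 47.8%, beside 20.2%, 14.5% and 16.6%. In the Tip60 KD 1 of the 4 lower genes, Nr5a2, had another probe called higher, and in the double KD Tdgf1 and in the Tip60 KD Sall4 were called higher by the brightest probe while their other 2 probes read below 0 and were not called. Some genes not called by the brightest probe were called by another. Such probes were lower for Mybl2 in each knockdown (-0.46, -0.30 and -0.34) and for Tfcp2l1 in the Tip60 KD (-0.40). They were higher for Sall4 in the Hdac6 and double KD (0.41 and 1.04), Nr5a2 in the double KD (0.71) and Dppa4 in the Hdac6 KD (0.25). The list had medians of 0.40, 0.17 and 0.30. The homeobox gene Gbx2, a target of LIF signaling, rose by 1.52, 1.55 and 1.06 in the Tip60, Hdac6 and double KD. In the same order, Prdm14, a repressor that guards the naive state, rose by 1.00, 0.47 and 0.88, all called. L1td1, an RNA-binding protein, rose by 0.90, 0.75 and 0.67, all called. Zscan10, a zinc finger partner of Pou5f1 and Sox2, rose by 0.80, 0.64 and 1.11, all called. Trim28, a corepressor, rose by 0.94 in the Tip60 KD and 0.63 in the double KD, and by 0.30, not called, in the Hdac6 KD.

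Dppa3 (Stella), a maternal factor found in naive cells, fell in each knockdown. It read 1.00 and 0.77 in the control KD, -0.46 and -0.71 in the Tip60 KD, -0.08 and -0.55 in the Hdac6 KD, and -0.03 and -0.46 in the double KD. No knockdown value reached the control values, and the changes were -1.47, -1.20 and -1.13 (limma adjusted p = 0.00495, 0.016 and 0.0164). Tcl1, an Akt cofactor, fell by 0.52 in the Tip60 KD (limma adjusted p = 0.0101). Nr5a2, an orphan receptor that can stand in for Pou5f1 in reprogramming, had no settled direction in the Tip60 KD, with one probe at -0.40, a call lost without either control array or Tip60 KD array B, and the other at 0.66, whereas both rose in the Hdac6 KD, by 0.61 and 1.14, the first of which lost its call without control array A or Hdac6 KD array A.

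Genes of the LIF and Stat3 pathway were called in shares close to those of all probes. Of 13 genes 12 were tested, and Junb was not, being above the floor on 0 arrays. Called genes were 33.3%, 33.3% and 41.7% of those tested in the Tip60, Hdac6 and double KD, beside 40.7%, 30.1% and 33.9% of all probes. By the brightest probe 1 was called higher and 3 lower in the Tip60 KD, 2 and 2 in the Hdac6 KD, and 3 and 2 in the double KD. Lifr was among the lower genes each time although its probes disagreed, and without the genes opposed by a call of another probe 2 were lower in the Tip60 KD and 1 in the double KD. The list had medians of -0.11, 0.06 and 0.02. Socs3, the feedback inhibitor induced by Stat3, read 3.50 and 3.50 in the control KD, 2.92 and 2.73 in the Tip60 KD, 3.24 and 3.16 in the Hdac6 KD, and 3.20 and 3.12 in the double KD. All 6 knockdown values were below the control values, and the changes were -0.67, -0.30 and -0.34 (limma adjusted p = 0.00366, 0.0731 and 0.0451). The Hdac6 KD and double KD calls of Socs3 were lost without any control, Hdac6 KD or double KD array, and without any control or double KD array, with values from -0.34 to -0.24 and from -0.38 to -0.26. Cish, another inhibitor of this family, fell by 0.41 in the Tip60 KD, a call lost without control array A or Tip60 KD array B.

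The receptor gene Lifr gave opposite readings by probe. Its brightest probe fell by 1.52 in the Tip60 KD, 0.56 in the Hdac6 KD and 1.04 in the double KD, whereas its other 2 probes rose in the Tip60 KD, by 0.58 and 0.80, so that no direction was settled. The Hdac6 KD call of the brightest probe was lost without control array A or Hdac6 KD array B. The kinase Jak1 rose by 0.58 in the Tip60 KD and by 0.57 in the double KD (limma adjusted p = 0.0323 and 0.0419). Pim1, a kinase induced by Stat3, rose by 0.55 in the Hdac6 KD and by 0.69 in the double KD (limma adjusted p = 0.0152 and 0.00662), its relative Pim3 by 0.30 in the double KD, and the adaptor Gab1 by 0.35 in the Hdac6 KD. The Jak1, Pim3 and Gab1 calls were each lost without either control array and without the A array of the knockdown concerned. Stat3 itself was not called, with changes of -0.02, 0.26 and 0.11.

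**Figure D4:**
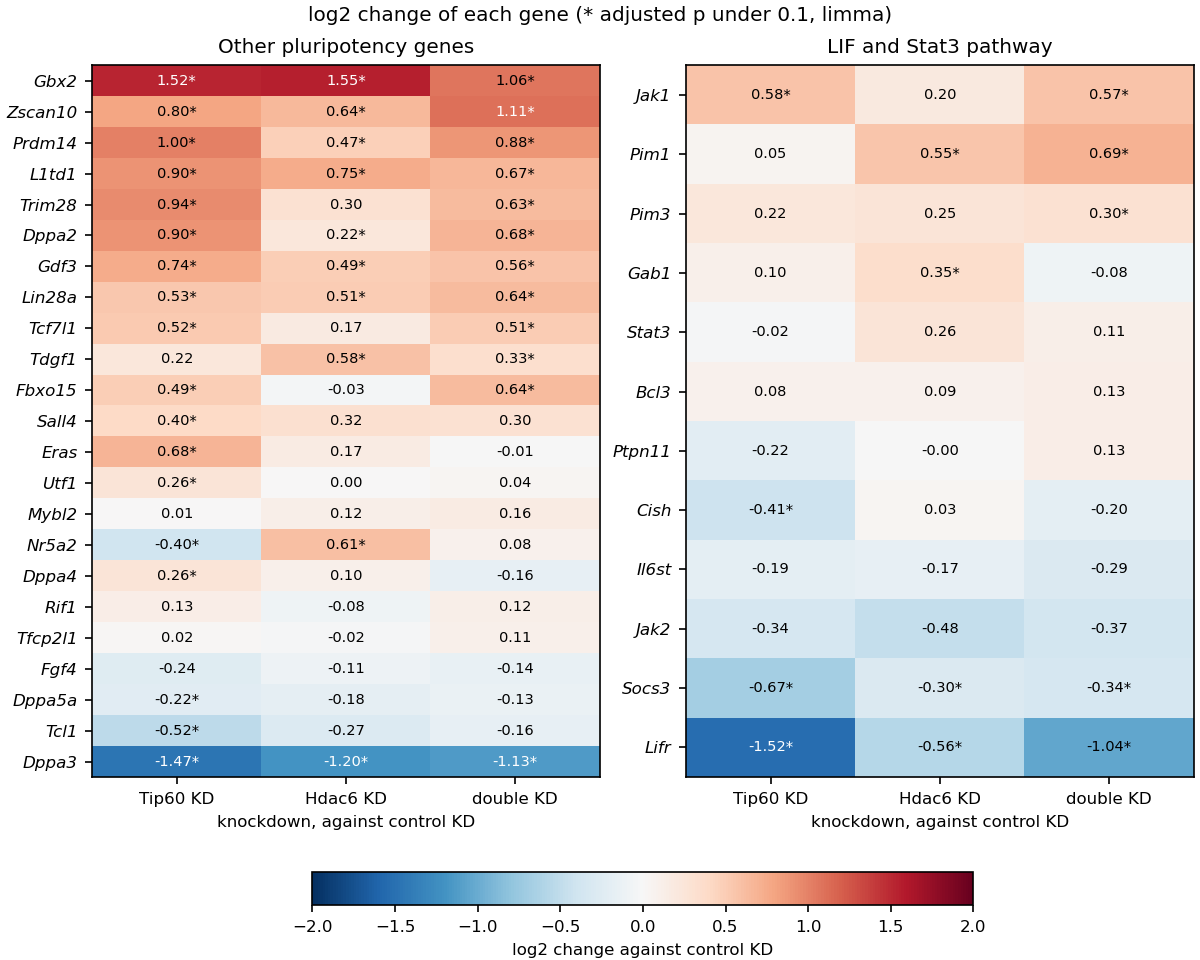
Each cell gives the log2 change against the control KD in the Tip60, Hdac6 and double KD, by the brightest kept probe of the gene, for 23 other pluripotency genes and 12 genes of the LIF and Stat3 pathway. Stars mark a limma adjusted p under 0.1. Gbx2 is high and Dppa3 low in all 3 knockdowns, and the Lifr values are contradicted by other probes of that gene.

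Markers of other cell types were read beside these results, since in bulk RNA fewer cells of a type and less RNA per cell cannot be told apart. Of 6 markers of the primed epiblast 5 were tested, with summed levels (in multiples of the 75th percentile) of 12.8 and 13.8 in the control KD, 13.1 and 13.2 in the Tip60 KD, 18.8 and 19.2 in the Hdac6 KD, and 15.2 and 16.1 in the double KD. Of these 2 were called higher in the Tip60 KD, 3 in the Hdac6 KD and 3 in the double KD. The shares of all probes called higher were 20.2%, 14.5% and 16.6%. Zic2 was among those called each time. Sox3, called in the Tip60 KD and the double KD, lay at the floor on both control arrays, and Fgf5 was above the floor on 0 arrays. The primed epiblast sum was highest in the Hdac6 KD, where Nr0b1 was highest, and its part in that result was not tested. Dnmt3b, a DNA methyltransferase, made up 66.8% to 78.3% of it on every array, and the rest of the list summed to 3.29 and 3.45 in the control KD and to 3.9 to 4.35 on the knockdown arrays. The probe of Dnmt3b that was summed read -0.15 in the Tip60 KD against control, not called, whereas its other 2 probes rose, by 0.70 and 0.26 (limma adjusted p = 0.00217 and 0.0849), so that the Tip60 KD sum depends on the probe taken. Fibroblast markers, with 3 of 5 tested, summed to 1.82 and 1.6 in the control KD, 2.65 and 2.2 in the Tip60 KD, 1.76 and 1.68 in the Hdac6 KD, and 2.61 and 2.32 in the double KD. Col1a1 and Thy1 rose in the Tip60 KD, by 0.96 and 0.46, and in the double KD, by 0.79 and 0.53. Col3a1 was not called in either (0.18 and 0.11) and lay at the floor on both control arrays. Col1a1 read -2.33 and -2.68 in the control KD, near the floor of -2.79, and was at the floor on both Hdac6 KD arrays. Col1a2 and Dcn were too dim to test. The Thy1 calls were lost without control array B and without the A array of the knockdown. Thy1 made up 78.5% to 82.9% of this sum. The sum was highest in the groups in which Pou5f1 and Zfp42 were highest, and its part in those results was not tested.

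The remaining lists held few measurable markers. Of 6 primitive endoderm markers 2 were tested, and Gata6, Foxa2, Dab2 and Sox7 were too dim to test. Of 5 trophectoderm markers 2 were tested, with sums between 0.456 and 0.727. Eomes rose by 0.83 in the Tip60 KD by its brighter probe and by 0.20, not called, by the other, and Krt7 was at the floor on all knockdown arrays. Mesoderm had 1 of 4 markers tested and neural 4 of 4, and limma called none of these, nor of the primitive endoderm markers, none of which had an unadjusted p under 0.05 in any knockdown.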

How the data were processed

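Total RNA of 8 mouse ESC samples, 2 in each of 4 groups, was labelled with Cy3 and hybridised to Agilent mouse whole-genome arrays. The authors scanned the arrays and deposited the output of Agilent Feature Extraction 10.7.1.1, in which the processed intensity of each spot is the spot signal after subtraction of a background fitted by that software. They also deposited a table of log2 values per probe, whose normalization is not given in the sources used here. Within each array that table ranked the probes as the intensities did, and it served as an alternative.

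Intensities were divided by the 75th percentile of non-control spots of the array, raised to a common floor (0.145 of the percentile, -2.79 on the log2 scale) and log2 transformed. Spots with an outlier mark were set missing, which removed 1 Nanog spot and 1 of 10 Nr0b1 spots, and spots of a probe were averaged. Probes were kept where 2 or more arrays read them over the floor with the scanner's call of a signal well above background (22546 of 39429), and 9.14% of their values lay at the floor. limma 3.58.1 in R 4.3.3 fitted all 4 groups in 1 model with 4 residual degrees of freedom, with Benjamini-Hochberg adjustment over all kept probes. Calls were made at an adjusted p under 0.1, as the study did. The number of arrays limits the precision, and signals were far above background for every kept member probe. The fit was tried on simulated data for the Tip60 KD against the control KD only. Its simulated arrays were independent, so that the pairing by slide was not covered.

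The members and lists were chosen with earlier results of these data known. The genes named were all 10 members, both knocked-down genes and, from each pathway list, at most 3 higher and 3 lower called genes of largest change in each knockdown, by the brightest kept probe. A gene of the list of other pluripotency genes is not reported here and was left out of its counts. For the 3 members with the widest range of group means, the 2 genes of nearest profile were also named. Probe positions are those of the scanner files, on build mm9, and their place in exons was not determined.

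The replicate letters pair the arrays, because all A arrays shared a slide and all B arrays shared the other, and the A minus B deviations of all 6 pairs of groups correlated over 22341 probes (r from 0.645 to 0.787). Alternatives were the replicate block, normexp background correction with an offset of 50, 1 background for every array, quantile normalization, the table of log2 values, no filter on dim probes, a lower floor, 1 probe or the mean of probes per gene, only the arrays compared, a threshold of 0.05, leaving out each array, and, added after the data were seen, keeping marked spots.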

Additional observations from a re-analysis of the deposited data

Results flagged for a closer look

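For 3 members the double KD change differed from the sum of both single changes by a test of the interaction term itself (limma, adjusted over all probes). The Pou5f1 term was -0.84 (limma adjusted p = 0.0299), with the double KD value below the sum in both slides (-0.74 and -0.93). The Nr0b1 term was -0.53 (limma adjusted p = 0.0947), at -0.53 in each slide. The Nanog term was 0.42 (limma adjusted p = 0.0801), and only slide 2 gives a value for it (0.45), since the Nanog spot on Tip60 KD array A is missing.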

How the results depend on the processing

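The 19 calls among the 70 values of 10 members in 7 comparisons kept their direction under every alternative that was run, and 11 of them lost the call under at least 1. Calls never lost were those of Pou5f1, Klf2 and Zfp42 in the Tip60 KD, Nr0b1 in the Hdac6 KD, Nr0b1, Klf2 and Pou5f1 in the double KD, and the Pou5f1 interaction. Of the 51 values not called, 16 changed sign under some alternative. Against control KD, the intervals of Nanog, Klf4, Klf5, Esrrb and Tbx3 all held 0. The causes of the changes below were not tested, except that the fits leaving out an array, and those with only the arrays compared, hold fewer arrays.

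With the replicate block, which respects the pairing by slide, the number of members called was 6 in the Tip60 KD (4 without it), 5 in the Hdac6 KD (3), 9 in the double KD (5), 3 between double and Tip60 KD (0), 7 between double and Hdac6 KD (1), 7 between Tip60 and Hdac6 KD (3) and 4 for the interaction (3). It changed no other call. Over all probes it raised the counts of calls from 9174, 6796, 7639, 1048, 2279, 5398 and 5283, in the same order, to 13697, 11966, 12556, 6227, 6609, 9494 and 10723. The lowest counts over the alternatives were 6878, 3534, 4923, 0, 0, 2628 and 2782, the zeros coming from fits with only the arrays compared.

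Of the 51 values not called, 22 gained a call with the block and 12 under another alternative. Some did both, so that 25 gained a call under any alternative. The 12 were of Esrrb, Tbx3, Klf4, Klf5, Zfp42 or Nanog. Members called in the double KD numbered 7 with quantile normalization and 7 with the deposited log2 table, which added Esrrb, Tbx3 and Klf4 and lost Sox2, but 3 with normexp and 3 with only the arrays compared. Between double and Hdac6 KD they numbered 0 with normexp, 1 background for every array, marked spots kept, only the arrays compared, or a threshold of 0.05. Between Tip60 and Hdac6 KD they numbered 1 with normexp, 1 background for every array, no filter, only the arrays compared, or a threshold of 0.05. Between double and Tip60 KD 1 was called with no filter. For the interaction 1 was called with 1 background for every array, with the deposited log2 table, or at 0.05. Leaving out each array in turn gave 3 to 4 members in the Tip60 KD, 1 to 3 in the Hdac6 KD, 3 to 5 in the double KD, 0 to 1 between double and Hdac6 KD, 0 to 2 between Tip60 and Hdac6 KD, and 1 to 2 for the interaction.

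All sign changes were of values not called. With normexp the Klf4 change in the Hdac6 KD was 0.0942, Klf2 between Tip60 and Hdac6 KD was 0.0477, and the Sox2 interaction was 0.0226. With 1 background for every array the same Klf4 and Klf2 values were 0.114 and 0.0504. With quantile normalization Nanog in the Tip60 KD was 0.0215, Sox2, Esrrb and Klf4 in the Hdac6 KD were 0.0252, 0.13 and 0.0704, and the Esrrb interaction was -0.0344. With the deposited log2 table Sox2, Esrrb and Klf4 in the Hdac6 KD were 0.0214, 0.0125 and 0.15, and Klf2 and Nanog between Tip60 and Hdac6 KD were 0.0526 and -1.60. With marked spots kept that Nanog difference was -1.62. Leaving out each array in turn moved values across 0 as follows. In the Tip60 KD Klf5 ranged from -0.0485 to 0.196 and Klf4 from -0.0361 to 0.14. In the Hdac6 KD Sox2 ranged from -0.178 to 0.0267, Klf4 from -0.106 to 0.0698 and Esrrb from -0.0709 to 0.0254. In the double KD Klf5 ranged from -0.22 to 0.0243. Between double and Tip60 KD Esrrb ranged from -0.0522 to 0.144 and Zfp42 from -0.173 to 0.0164, between double and Hdac6 KD Pou5f1 ranged from -0.0057 to 0.324 and Klf5 from -0.02 to 0.224, and between Tip60 and Hdac6 KD Klf2 ranged from -0.101 to 0.0368. Of the interactions, Klf5 ranged from -0.094 to 0.15, Sox2 from -0.127 to 0.0778 and Esrrb from -0.0294 to 0.166. Nanog in the Tip60 KD gave no value without array B.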
